A study of Mus musculus with 75 samples.

Results

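The axon guidance ligands and receptors described here were chosen by gene symbol from the table of all genes. They are the semaphorins of classes 3 to 7, the plexins, both neuropilins, the ephrins and Eph receptors, the Robo receptors and Slit ligands, the netrins and netrin-Gs, and Unc5a, Unc5c and Unc5d. This gave 66 of 14261 genes, made up of 19 semaphorins, 9 plexins, 2 neuropilins, 8 ephrins, 12 Eph receptors, 4 Robo receptors, 3 Slit ligands, 4 netrins, 2 netrin-Gs and 3 Unc5 receptors. The rule reads gene symbols only, and it leaves out Unc5b, another Unc5 receptor, which nothing below covers. The RNA was bound to ribosomes in the visual cortex of C57BL/6 mice aged 8 weeks. Every mouse was heterozygous for a Cre allele (Emx-, Gad2-, PV-, SST- or VIP-Cre) and for the Rpl22-HA (RiboTag) allele, which puts an HA tag on a ribosomal protein in cells that express Cre. Mice of each line were kept in standard housing, in complete darkness, or in darkness and then in light for 1, 3 or 7.5 h, which asks how sensory experience changes expression in each class of neuron. Each sample pooled the visual cortices of 3 mice. Each of the 25 groups had 3 samples, except that 2 libraries each were used for SST dark and SST standard. Both of those groups lack replicate number 2, so a change with light in the SST line also carries a difference between replicate numbers unless the number is in the fit.

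Axon guidance molecules tell a growing axon where to turn, stop and branch, and many stay on in the adult brain, where they act on dendritic spines and synapses. Class 3 semaphorins are secreted, and most bind a neuropilin, which passes the signal on through an A-type plexin (Sema3e binds Plxnd1 without one), while most membrane semaphorins bind plexins directly. Ephrins are ligands held on the cell surface that signal to Eph receptor tyrosine kinases on the neighbouring cell, Slit proteins bind Robo receptors, and netrin-1 attracts through Dcc or repels through Unc5 receptors.

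The lines carried the marker of their own class. Slc17a7, the glutamate transporter of cortical excitatory neurons, lay between 16872 and 29714 in the Emx libraries and reached at most 5685 elsewhere. Vip lay between 52200.0 and 124460.0 in the VIP line and reached at most 687 in PV and SST. The Emx libraries also held much glial RNA, with median log2 levels of 11.49 over 8 astrocyte and 11.50 over 8 oligodendrocyte markers (Emx is known to be active in that lineage too). Markers of other cells stood higher in the VIP than in the PV line, with medians of 10.16 against 8.67 for 8 excitatory markers, 8.93 against 7.33 for astrocytes and 5.92 against 4.28 for 7 endothelial and pericyte markers. Depth was 7.26 to 52.4 M gene reads (median 24.8), with a median of 33.04 M in dark libraries and 12.96 M at 7.5 h of light. Levels below are the authors' normalized signal (gene reads divided by a factor per library) and are not scaled by gene length, so they are compared between samples and never between genes.

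These genes varied more between Cre lines than between housing conditions. Over the 62 members with a mean signal of at least 20, the median range between the 5 line means was 1.86 on the log2 scale, with quartiles of 1.31 and 3.27. The same 62 genes had a median range of 0.36 (0.27 to 0.56) between the 5 housing conditions of a line. Over all 13156 genes at that level the medians were 0.85 between lines and 0.32 between conditions. For 59 of the 62 members (95.2%) the range between lines exceeded the range between conditions in every line, against 71.6% of all genes. The members below that level were Efna4, Ephb4, Robo3 and Robo4, and Efna4 was listed at 0 in 39 of the 73 libraries. These ranges are descriptions and were not tested.

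**Figure D1:**
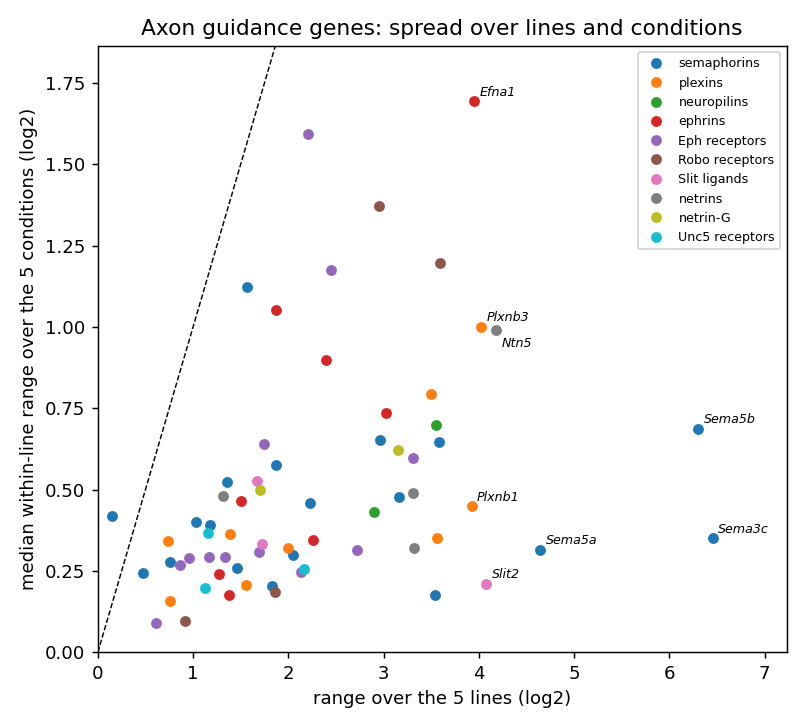
Each point is 1 of the 66 axon guidance genes, coloured by family, with the range of its mean log2(signal + 1) over the 5 Cre lines on the x axis and the median over lines of its range over the 5 housing conditions on the y axis. The dashed line marks equal ranges; nearly all points lie to its right, and Sema3c (6.46), Sema5b (6.30) and Sema5a (4.64) lie farthest out.

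**Figure D2:**
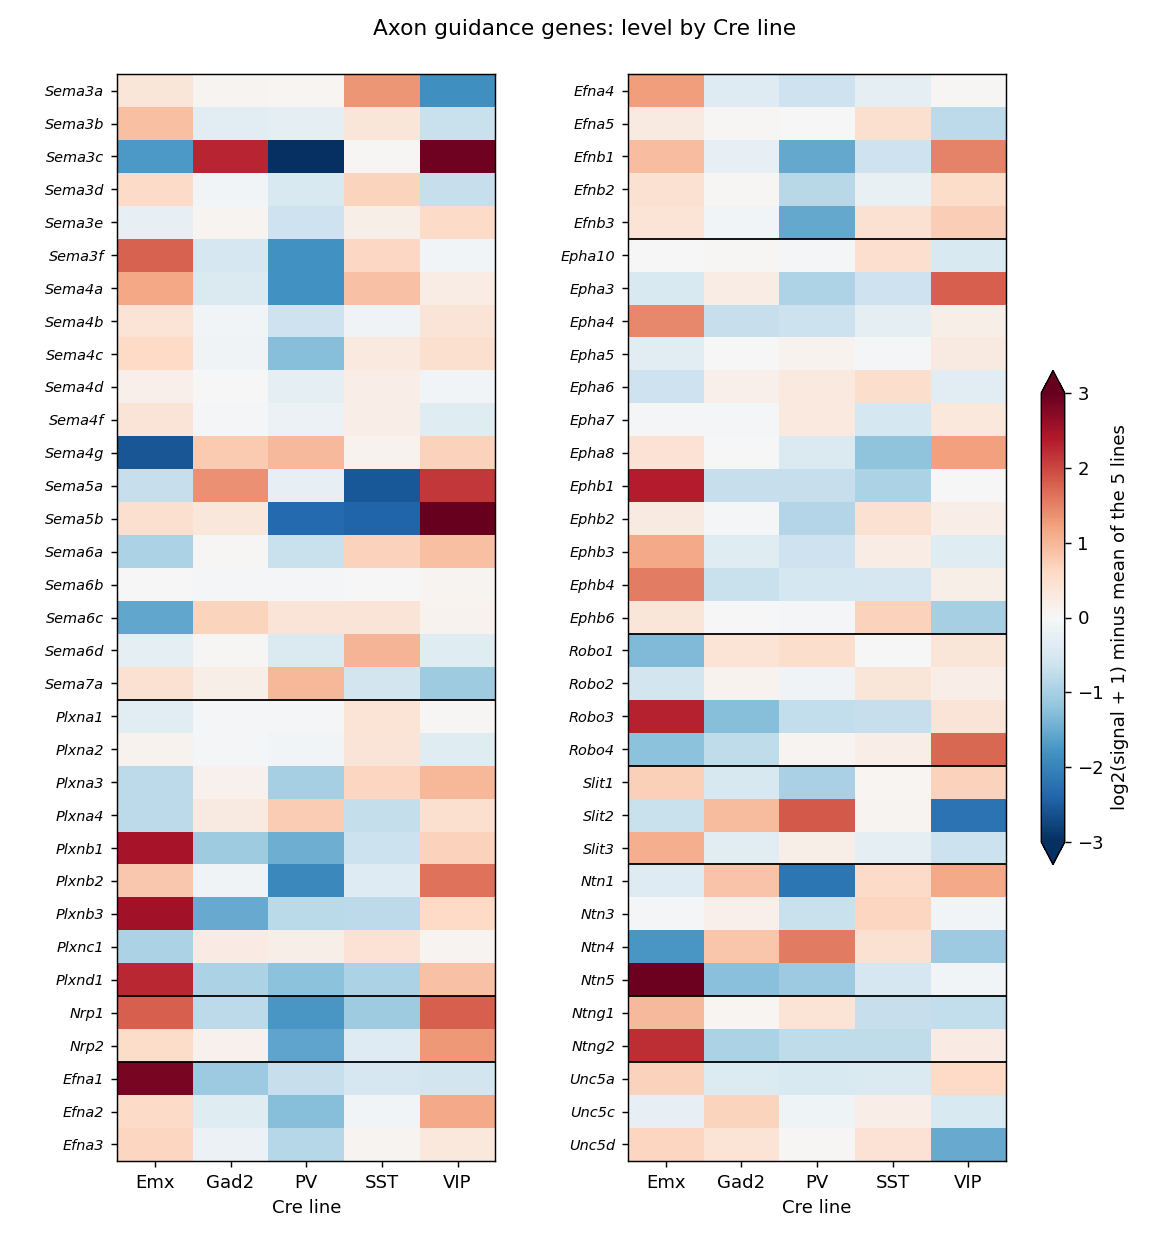
Colour gives the mean log2(signal + 1) of each gene in each Cre line minus its mean over the 5 lines, with differences beyond 3 drawn in the end colours, and black lines separate the families. Emx held the highest level for 24 of the 66 genes and VIP for 20, while PV held the lowest for 27.

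The PV, SST and VIP lines, which mark separate classes of inhibitory neuron, differed in the level of many guidance genes. Lines were compared with limma on log2(signal + 1) over all groups, and genes were called at a 5% false discovery rate (Benjamini-Hochberg over 14164 genes) and only where the log2 difference was 1 or more in size. Between PV and VIP, 36 of 66 members were called (background over all genes 26.3%), of which 30 were higher in VIP (background 17.1%) and 6 higher in PV (9.15%). Between PV and SST, 23 were called (background 13.6%), with 17 higher in SST (8.9%) and 6 higher in PV (4.66%). Between SST and VIP, 26 were called (background 15.8%), with 17 higher in VIP (9.68%) and 9 higher in SST (6.12%). The median member lay 0.69 (log2) lower in PV than in VIP and 0.46 lower in PV than in SST, against medians of -0.03 and -0.02 over all genes. Same-numbered libraries of a line deviated together between conditions (r = 0.156 to 0.801), while this fit took all libraries as independent. The SEs and p-values of line comparisons, here and below, therefore tend to be too small, by an amount not tested. In bulk RNA, fewer cells of a type and less RNA per cell cannot be told apart.

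Of the 66, 16 were called higher in VIP than in both other classes (background 8.15%), 4 in PV (3.13%) and 3 in SST (2.41%). A further view of the same calls is that 13 were lower in PV than in both others (background 6.18%), 4 lower in VIP (3.13%) and 2 lower in SST (1.04%). The 13 that were low in PV were Sema3c, Sema3f, Sema4a, Sema4c, Sema6a, Plxna3, Plxnb2, Nrp2, Efna2, Efnb3, Ephb2, Slit1 and Ntn1. A total of 8 members differed between all 3 classes (background 3.6%), 26 in 2 of the 3 pairs (16.9%), 9 in 1 pair (11.1%) and 23 in none (68.4%). The 9 were Sema3e, Sema4b, Efna3, Efnb2 and Ntn5 (higher in VIP than in PV), Ntn3 (higher in SST than in PV), and Sema3b, Efna5 and Ephb6 (higher in SST than in VIP). The 16 VIP-high genes were Sema3c, Sema5a, Sema5b, Plxnb1, Plxnb2, Plxnb3, Plxnd1, Nrp1, Nrp2, Efna2, Efnb1, Epha3, Epha8, Robo3, Robo4 and Unc5a. Excitatory and glial markers stood higher in VIP, as given above, so the level in the Emx line is set beside this. It does not bear on RNA of endothelial cells and pericytes or of microglia and macrophages. Their markers stood higher in VIP than in Emx, with median log2 levels of 5.92 against 3.81 and 7.26 against 4.86. Among these 16, the mean log2 level in VIP exceeded that in Emx for 11 genes (by as little as 0.01 for Nrp1, a difference not tested), while Plxnb1, Plxnb3, Plxnd1, Robo3 and Unc5a stood higher in Emx. Among the 30 members higher in VIP than in PV, 17 stood higher in VIP than in Emx and 13 higher in Emx. How far RNA of other cells enters these differences was not tested.

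The largest differences were in semaphorins, the ligands. Sema3c, a secreted semaphorin, ranged from 12.8 to 61.2 in the 15 PV libraries (median 29.0). It ranged from 251 to 414 in the 13 SST libraries (355) and from 2063 to 3009 in the 15 VIP libraries (2562). The 3 classes did not overlap, and the Emx libraries lay between 64.9 and 135. The fold was 87.8 for VIP over PV (log2 difference PV minus VIP -6.46, SE 0.11, adjusted p = 6.20e-48) and 7.47 for VIP over SST (-2.90, SE 0.11). Sema5b, a membrane semaphorin with thrombospondin repeats, was 22.4 to 129.96 in PV (median 62.9), 29.1 to 167 in SST (53.8) and 2356 to 6718 in VIP (5203). PV and SST overlapped, and every VIP library lay above them, by 75.2-fold against PV (SE 0.22 on the log2 scale) and 79.1-fold against SST (SE 0.23). Its relative Sema5a was 950.1 to 2122 in PV, 159 to 666 in SST and 4949 to 10502 in VIP, again without overlap. The VIP libraries were thus 5.14-fold above PV and 25-fold above SST for Sema5a.

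SST libraries stood highest for other semaphorins. Sema3a, a secreted repellent that acts through Nrp1, was 1820.2 to 3534 in SST (median 2596), 804 to 1795 in PV (966) and 142 to 521 in VIP (269.8). None of the 3 classes overlapped for Sema3a, and the difference between SST and VIP was 8.95-fold (log2 3.16, SE 0.12, adjusted p = 4.64e-30). Sema6d, a membrane semaphorin, was 4237 to 6902 in SST against 1458 to 2720.1 in PV and 1583 to 2567 in VIP, or 2.74-fold and 2.64-fold higher. Sema3d was also higher in SST, by 2.19-fold over PV and 2.57-fold over VIP. PV stood highest for Sema7a, a lipid-anchored semaphorin that binds Plxnc1, with 3558 to 5685 in PV (median 4722), 1209.5 to 2189.8 in SST (1575) and 918 to 1406 in VIP (1174). The Sema7a levels of SST and VIP overlapped while PV lay above both, 2.91-fold over SST and 4.15-fold over VIP. Plxnc1, its receptor, was called in no pair, with medians of 3197 in PV, 3904 in SST and 3036 in VIP. PV libraries were low for Sema4a (74.998 to 154, against 518 to 905 in SST and 129.9 to 619.5 in VIP) and for Sema3f (5.48 to 35.2, against 61.1 to 144 in SST and 30.1 to 112 in VIP). Sema4d, Sema4f, Sema4g, Sema6b and Sema6c were called in none of the 3 pairs.

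**Figure D3:**
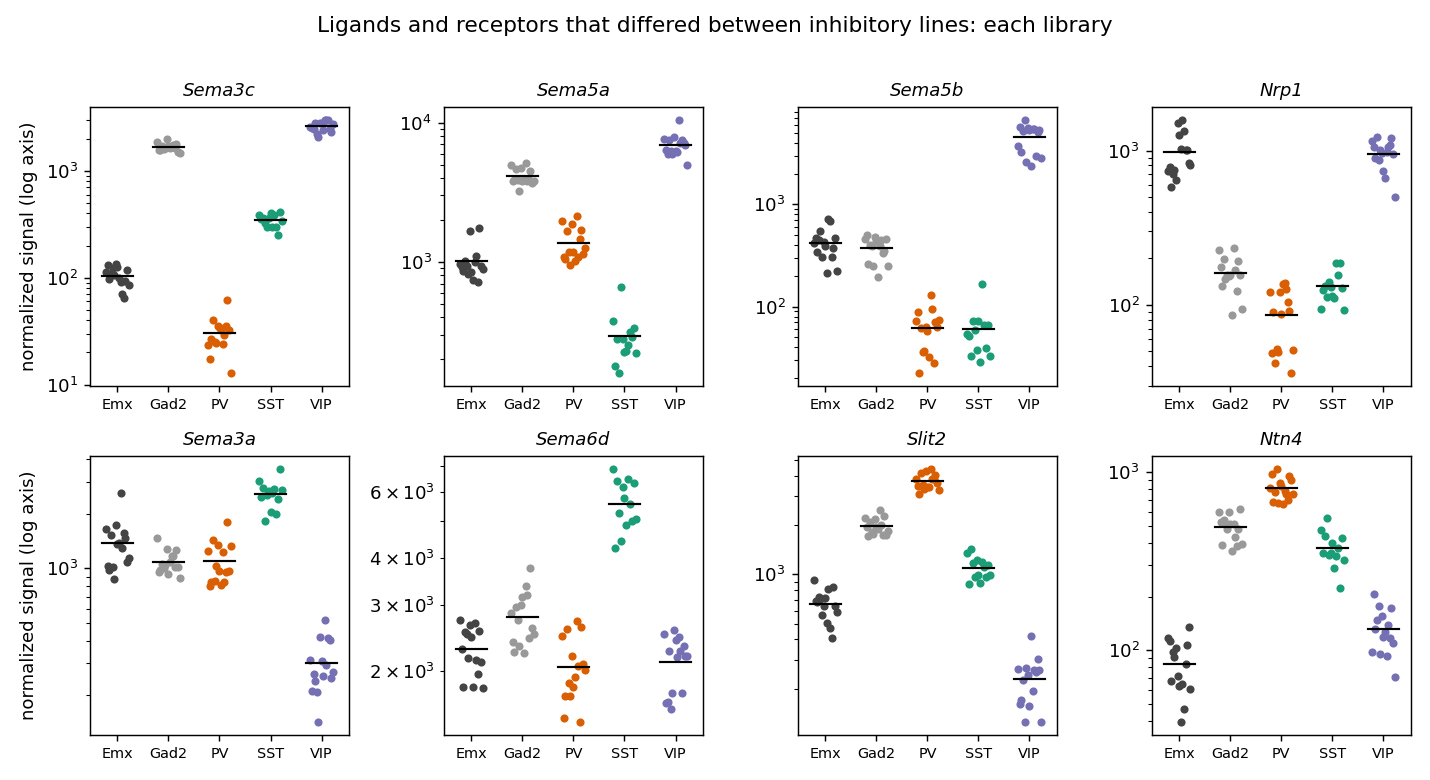
Each point is 1 library (15 per line, 13 in SST) and each bar the mean of its line, with normalized signal on a log axis for 8 axon guidance genes. The VIP points of Sema3c, Sema5a and Sema5b lie above all PV and SST points, those of Slit2 and Sema3a below them, and the PV points of Slit2 and Ntn4 above the SST and VIP points.

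Both neuropilins stood higher in VIP. Nrp1, the neuropilin that binds Sema3a, was 36.2 to 139 in PV (median 90.6), 92.8 to 188 in SST (129) and 497 to 1231 in VIP (981). PV and SST overlapped, and VIP lay 11.7-fold above PV (log2 -3.55, SE 0.13, adjusted p = 1.21e-31) and 7.34-fold above SST. The Emx libraries, at 585 to 1584, overlapped those of VIP. Nrp2, which prefers Sema3c and Sema3f, was 71.4 to 210.5 in PV, 259 to 443 in SST and 696 to 1367 in VIP, without overlap. Nrp2 was thus 7.44-fold and 3.20-fold higher in VIP. Among the B plexins, receptors for class 4 semaphorins, Plxnb2 was 43.7 to 91.7 in PV, 136 to 296 in SST and 726 to 1392 in VIP (11.8-fold and 4.07-fold higher in VIP), above the 367 to 618 of the Emx line. Of the A plexins, which neuropilins use to signal, Plxna4 was lowest in SST (2550.1 to 5051, against 7523 to 12502 in PV and 5235 to 9901 in VIP). Plxna3 was lowest in PV (104 to 211, against 357 to 579 in SST and 421 to 762 in VIP). Plxna1 and Plxna2 were called in none of the 3 pairs.

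Among the 8 ephrins and 12 Eph receptors, no member was called higher in PV than in SST (background 4.66%) or VIP (9.15%). Higher in VIP than in PV were 5 of 8 ephrins and 3 of 12 Eph receptors (background 17.1%). The Eph receptor count lies near that share. Efnb3, an ephrin that crosses the membrane, was 348 to 522 in PV (median 413), 1231 to 2158 in SST (1675) and 1385 to 2859 in VIP (2014). Every PV library lay below the others for Efnb3, by 3.96-fold against SST and 4.80-fold against VIP. Efnb1 was 19.0 to 80.6 in PV, 51.5 to 161 in SST and 206 to 630.4 in VIP, 8.15-fold higher in VIP than in PV and 4.31-fold higher than in SST. Among the receptors, Epha3 was 393 to 833 in VIP against 49.7 to 139.7 in PV and 60.6 to 166 in SST (6.59-fold and 5.28-fold), above the 87.9 to 177 of the Emx line. Epha8 was low in all lines and stood at 37.1 to 177 in VIP and 6.65 to 30.6 in SST (5.46-fold). Ephb6, a family member without kinase activity, was higher in SST (1406 to 2131) than in VIP (419.6 to 667), by 3.23-fold. Epha4, Epha5, Epha6, Epha7, Epha10, Ephb1, Ephb3, Ephb4, Efna1 and Efna4 were called in none of the 3 pairs.

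Slit2, a secreted ligand of Robo receptors, was 3096 to 4407 in PV (median 3632), 867 to 1417 in SST (1106) and 125 to 419 in VIP (242). The 3 classes did not overlap, and PV lay 16.9-fold above VIP (log2 4.08, SE 0.12, adjusted p = 1.21e-36) and 3.40-fold above SST. Robo1 and Robo2, its main neuronal receptors, varied far less: median Robo1 was 3343 in PV, 2499 in SST and 3190 in VIP, and median Robo2 3674, 4841 and 4507. Neither was called in any pair of classes, nor was the ligand Slit3. The other 2 Robo genes were scarce and were called higher in VIP, although their libraries overlapped. Robo3 was 1.54 to 11.8 in PV, 2.05 to 14.5 in SST and 0 to 66.3 in VIP (2.19-fold over PV and 2.13-fold over SST), and Robo4 reached 13.1, 22.7 and 45.4 at most (3.13-fold and 2.90-fold). Slit1 went the other way, with 122.9 to 262 in PV against 370.4 to 809 in VIP, which is 3.14-fold higher in VIP.

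Netrins also differed in both directions. Ntn4, a laminin-like netrin, was 664 to 1044.5 in PV (median 783), 224 to 553 in SST (352) and 71.0 to 207 in VIP (127), 2.17-fold and 6.34-fold higher in PV. Ntn1, the classical netrin, was 10.7 to 88.998 in PV (median 22.2) against 127 to 217 in SST (179) and 96.6 to 367 in VIP (273). No PV library overlapped the others for Ntn1, and the folds were 6.70 for SST and 9.92 for VIP over PV. Of the repulsive netrin receptors, Unc5d was 1254 to 2280.3 in PV and 1792 to 2935 in SST but 269.8 to 882 in VIP (2.96-fold and 3.87-fold lower in VIP). Unc5a was 2599 to 4091 in VIP against 1149.8 to 2098 in PV and 1209 to 1913 in SST, 2.08-fold and 2.035-fold higher in VIP. With the replicate number as a block the Unc5a difference between SST and VIP was -0.997 (log2) and fell short of the minimum of 1, which left 25 calls in that pair. Ntng1, a lipid-anchored netrin-G, was 660.5 to 1176 in PV, 263 to 566 in SST and 192 to 522 in VIP, 2.17-fold and 2.22-fold higher in PV. In the dark groups alone the Ntng1 differences were 0.78 and 0.99 (log2) and no longer reached 1. Ntng2 and Unc5c were called in none of the 3 pairs.

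The Gad2 line tags inhibitory neurons in general, and for 55 of the 66 members its mean lay between the lowest and the highest of PV, SST and VIP. Set against Gad2, the Emx line called 30 members (background 25.2%), with 20 higher (background 15.2%) and 10 lower in Emx (10.0%). Ntn5 was the largest difference in this direction, at 56.4 to 353 in Emx (median 175) and 0 to 16.4 in Gad2 (9.55). Plxnb3 was 100.5 to 189 in Emx and 1.27 to 29.1 in Gad2, and Plxnb1 1061 to 1668 against 68.3 to 181 (11.6-fold). Plxnd1, the receptor of Sema3e, was 548 to 1208 in Emx and 58.4 to 116 in Gad2 (9.17-fold), and Ephb1 was 773 to 985.07 against 72.6 to 156 (8.32-fold). None of these 5 genes overlapped between the lines. Low genes gave large ratios with wide errors: Efna1 was 25.7 to 157 in Emx against 0.844 to 24.3, and Robo3 28.9 to 85.9 against 0 to 12.5, with SEs of 0.46 and 0.37 on the log2 scale. Lower in Emx were Sema3c (64.9 to 135 against 1475 to 1964, 16.2-fold), Sema4g (156 to 309 against 1859 to 2882, 10.3-fold), Ntn4 (39.4 to 135 against 363 to 617, 6.00-fold), Sema6c (4.69-fold), Sema5a (4.17-fold) and Robo1 (578 to 1265 against 2148 to 4061, 3.36-fold). The part of glial RNA in these Emx levels was not tested.

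Other genes of the pathway were listed by function. Of 54 such receptors, coreceptors and signalling proteins in the fit, 2 were higher and 17 lower in PV than in VIP (backgrounds 9.15 and 17.1%), and 2 higher and 10 lower in PV than in SST (4.66 and 8.9%). Another 1 was higher and 6 lower in SST than in VIP, or 7 of 54 against a background of 15.8%, so that count does not exceed it. Dcc, the attractive netrin receptor, averaged 296 ± 64.2 in PV (SD, n = 15), 1068 ± 176 in SST (n = 13) and 1874 ± 267 in VIP (n = 15). Dscam, another netrin receptor, averaged 576 ± 88.3, 2939.5 ± 502 and 4901 ± 740.4, so Ntn1, Dcc and Dscam were all lowest in PV. Rgma, a ligand of neogenin, was 10.98-fold higher in VIP than in PV, and averaged 1909 ± 379 in Emx and 1777 ± 382 in VIP. Gap43, a growth cone protein, averaged 913 ± 148 in PV, 4867 ± 537 in SST and 4582 ± 692 in VIP. Lrrc4c, the partner of Ntng1, was higher in PV than in SST (2.36-fold), as was Ntng1 itself. Between Emx and Gad2, 9 were higher and 8 lower in Emx (backgrounds 15.2 and 10.0%), with Ngef, an exchange factor downstream of Epha4, 6.08-fold higher.

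Without a replicate term in the fit, light changed few of these genes, and all calls were in the Emx line. Each line was fitted by itself, with each light time and standard housing set against dark. In Emx 6 of 66 members were called at 7.5 h (background 3.8%), of which 5 rose (background 2.52%) and 1 fell (1.28%), and 1 at 3 h (1.07%). At 1 h and in standard housing limma called 0 members in Emx (backgrounds 0.641 and 0.12%), with 2 and 1 at an unadjusted p under 0.05. The median member changed by -0.03 (log2) at 7.5 h, as did the median of all genes.

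Sema7a rose at 7.5 h of light. Its levels in the Emx line were 2573, 3138 and 2649 in the dark, 2822, 3071 and 2805 at 1 h and 2611, 3177 and 2882 at 3 h. They were 5016, 5448 and 4237 at 7.5 h and 2994, 3718 and 2680.3 in standard housing. The 3 libraries at 7.5 h lay above all others, and the rise over dark was 1.76-fold (log2 0.81, SE 0.15, adjusted p = 0.00663, higher in 3 of 3 replicate numbers).

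Both neuropilins rose. Nrp1 stood at 742, 779.8 and 585 in the dark, 709, 743 and 647 at 1 h, 1501, 1261 and 1027 at 3 h, and 1584, 1334 and 1015 at 7.5 h. All libraries at 3 h and 7.5 h lay above all dark libraries, with rises of 1.79-fold at 3 h (log2 0.84, SE 0.19, adjusted p = 0.0444) and 1.85-fold at 7.5 h (0.89, SE 0.19, adjusted p = 0.0155). In standard housing Nrp1 was 1013, 826 and 807. Nrp2 rose 2.04-fold at 7.5 h (log2 1.03, SE 0.20, adjusted p = 0.0107), from 429.7, 460.2 and 382 in the dark to 798, 1011 and 795. Its values of 715, 716 and 529.8 at 3 h lay between those, and standard housing gave 862, 511 and 504. Epha10, an Eph receptor without kinase activity, rose 1.95-fold, from 231, 318 and 279 to 525, 597 and 489.8 (log2 0.97, SE 0.19, adjusted p = 0.0109). Sema3f, a ligand of Nrp2, rose 1.64-fold, from 159, 181 and 166 to 246, 314 and 272 (log2 0.71, SE 0.18, adjusted p = 0.0463). Plxnd1 fell, from 1208, 1094 and 856 in the dark to 548, 666 and 584 (1.74-fold lower, log2 -0.80, SE 0.21, adjusted p = 0.0443). None of these dark and 7.5 h groups overlapped. Gaps of this kind, here and elsewhere, describe genes picked by p in the same libraries and are no further support. Some members not called had them too, such as Ntng1 and Sema6c in PV at 7.5 h.

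Only the Sema7a call held with each of the 15 Emx libraries left out in turn. Epha10 lost its call without dark replicate 1 (adjusted p = 0.0505) and Nrp2 without dark replicate 3 (0.0545). Nrp1 at 7.5 h lost its call without dark replicate 3 or either of 7.5 h replicates 1 and 2, while Nrp1 at 3 h and Plxnd1 lost theirs in 11 of the 15 cases and Sema3f in 13. Their changes kept their direction in all 15. The summed level of 5 VIP neuron markers in the Emx line was 69.5 to 106 in the dark and 297 to 756 at 7.5 h, without overlap, and none of the 5 was at 0. The sums of the other marker lists (general inhibitory, PV, SST, excitatory, glial, microglial and endothelial) overlapped between those groups. At 3 h the VIP sum was 164 to 334, and 2 more sums lay above the dark range, that of 6 general inhibitory markers at 5220.0 to 5539 against 3932 to 4981 and that of 5 SST markers at 1353 to 1459 against 1075 to 1238. At 1 h the oligodendrocyte sum did, at 73260 to 76670 against 59290 to 72030. In standard housing the VIP sum was 264 to 629, also above its dark range. The part of these markers in the changes was not tested.

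**Figure D4:**
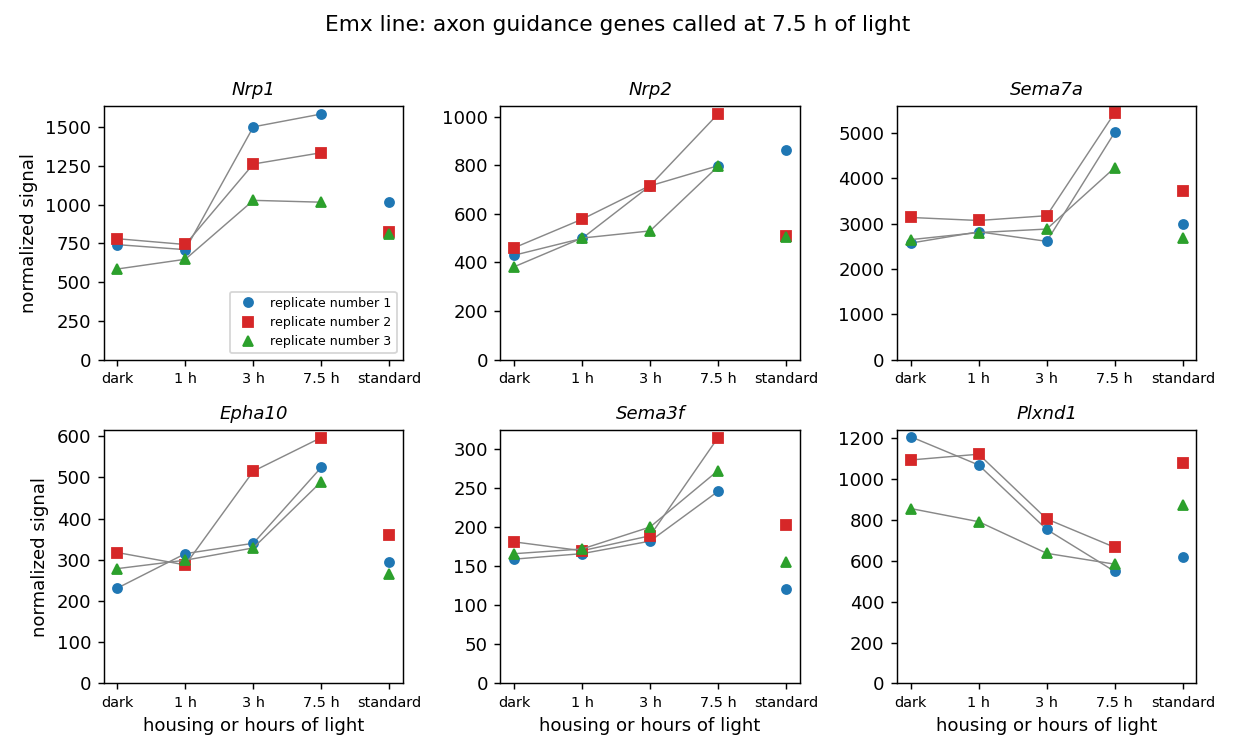
Normalized signal of the 6 axon guidance genes called in the Emx line at 7.5 h, by housing or hours of light, with 1 symbol for each replicate number and lines joining libraries of the same number. At 7.5 h all 3 libraries lie above the dark libraries for Nrp1, Nrp2, Sema7a, Epha10 and Sema3f and below them for Plxnd1.

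In the other lines limma called 0 members at any time. The backgrounds at 1 h, 3 h, 7.5 h and in standard housing were 0.218, 0.127, 0.387 and 0.0492% in Gad2, where 1, 2, 4 and 2 members had an unadjusted p under 0.05. They were 0.155, 0.0775, 0.338 and 0.113% in PV, with 1, 1, 2 and 3 of the 65 members tested there (Efna4 was not). In SST they were 0.324, 0.408, 1.11 and 0.0%, with 1, 2, 7 and 0 members, and in VIP 0.289, 0.282, 0.254 and 0.127%, with 1, 4, 3 and 2.

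Replicate numbers paired the samples, and with the number as a block in each fit many more genes passed, members and others alike. In Emx the block called 1 member at 1 h (background 2.84%), 11 at 3 h (12.2%), 27 at 7.5 h (25.9%) and 0 in standard housing (0.944%, with 14 at an unadjusted p under 0.05). At 7.5 h, 16 rose (background 12.9%) and 11 fell (13.0%). In Gad2 it called 6 members at 7.5 h (8.24%) and 0 at 1 h (1.27%), 3 h (3.11%) and in standard housing (0.879%), where 4, 11 and 5 had an unadjusted p under 0.05. In PV it called 4 at 7.5 h (7.9%), 3 in standard housing (2.46%) and 0 at 1 h (0.543%) and 3 h (0.986%), with 4 and 5 at an unadjusted p under 0.05. In SST it called 11 at 7.5 h (17.0%), 1 at 3 h (5.43%) and 0 at 1 h (1.37%) and in standard housing (0.345%), with 4 and 6 at an unadjusted p under 0.05. In VIP it called 2 at 7.5 h (1.61%) and 0 at 1 h (0.592%), 3 h (2.18%) and in standard housing (0.366%), with 2, 8 and 5. At 7.5 h the share of members called was thus 40.9% in Emx, 16.7% in SST, 9.09% in Gad2, 6.15% in PV and 3.03% in VIP. It lay near or below the background in SST, Gad2 and PV, and in VIP it rested on 2 members (background 1.61%). The counts in these lines are no result about guidance genes as a group.

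With the block in Emx, members of every family but the netrins and Unc5 receptors passed. Plxna4 rose from 3632, 3173 and 2201 in the dark to 5259, 5212 and 3236 at 7.5 h, higher in 3 of 3 numbers, although the groups overlapped (log2 0.60, SE 0.07, adjusted p = 2.85e-06). Sema4a rose from 866, 841 and 559 to 1268, 1322 and 979.7 (log2 0.67, SE 0.10, adjusted p = 2.07e-05), without overlap. Sema3a rose from 1639.8, 1029 and 977 to 2585, 1296 and 1568 (log2 0.56, SE 0.10, adjusted p = 0.000405), with overlap. Efnb1 rose from 312, 204 and 110.3 to 402, 401 and 318 (log2 0.95, SE 0.20), Efna3 by 0.57 (SE 0.12), Sema3e by 0.40 (SE 0.09) and Ephb3 by 0.80 (SE 0.19), the last also at 1 h (0.70, SE 0.19). Falls included Plxna3, from 192, 202 and 162 to 135, 119.8 and 71.2 (log2 -0.81, SE 0.18), Sema6a (-0.45, SE 0.10), Epha4 (-0.25, SE 0.06) and Sema6b, which was lower at 3 h (-0.53, SE 0.09) and at 7.5 h (-0.44, SE 0.09). The other falls at 7.5 h, beside Plxnd1, were of Epha8 (-1.06), Sema3c (-0.59), Slit2 (-0.49), Ntng1 (-0.42), Efnb2 (-0.28) and Robo2 (-0.23), and the other rises of Plxnc1 (0.23), Ntng2 (0.35), Sema5b (0.39) and Plxna2. Plxnc1 is the receptor of Sema7a, which rose in the same libraries. At 3 h the 7 rises (background 7.35%) were of Nrp1, Nrp2, Epha10, Plxnc1, Sema3e, Sema3a and Plxna4, and the 4 falls (4.89%) of Sema6b, Plxnd1, Sema6a and Sema4f.

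Plxna2, an A plexin and receptor for class 6 semaphorins, passed with the block in 4 lines. In SST it was 5440.4 and 3895 in the dark and 8319, 7234 and 6621 at 7.5 h, without overlap (log2 0.69, SE 0.07, adjusted p = 7.36e-08). In Emx it went from 4959, 3962 and 3489 to 6304, 4675 and 4379 (log2 0.30, SE 0.07). In Gad2 it went from 4067, 3508 and 3195 to 5348, 3917 and 3619.9 (0.245, SE 0.055), and in PV from 4241, 3289 and 3189 to 4989.9, 4016 and 3340.3 (0.197, SE 0.06). Each replicate number present in both groups rose in each of these lines, while the groups overlapped outside SST. In SST these were numbers 1 and 3, since the dark group lacks number 2. In VIP the values were 4263, 2666 and 2372 in the dark and 4404, 3346 and 3008 at 7.5 h (0.24, SE 0.14), which did not pass.

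Sema7a passed in PV as well, from 4088, 4794 and 4148 to 5274, 5524 and 5016 (log2 0.28, SE 0.07), and in SST, from 1415 and 1209.5 to 1667, 2189.8 and 1976 (0.455, SE 0.09). Neither pair of groups overlapped. Unc5a rose in PV from 1308, 1552 and 1243 to 2098, 1936 and 1683 (0.48, SE 0.09, adjusted p = 0.000577), without overlap, and Slit2 there by 0.21 (SE 0.06). In standard housing the PV line had more Sema3a (0.48, SE 0.10) and Unc5a (0.32, SE 0.09) and less Epha6 (-0.29, SE 0.08) than in the dark. In SST, Efna5 rose from 2293 and 2089 to 3000.3, 2716 and 2633 (0.35, SE 0.08), and Nrp1, Efnb1 and Plxna4 rose by 0.76 (SE 0.23), 0.88 (SE 0.29) and 0.325 (SE 0.07). Ephb3 rose there at 3 h (0.69, SE 0.20). Lower in SST at 7.5 h were Ntn4 (-0.56), Ntng1 (-0.56), Sema4a (-0.40), Efnb3 (-0.39) and Sema4g (-0.275). Lower in Gad2 were Sema4a (-0.65), Efnb3 (-0.31), Ephb6 (-0.31), Sema6b (-0.24) and Robo1 (-0.185). Efnb3 fell in Gad2, SST and VIP; its VIP values were 2074, 2716 and 2008 in the dark and 1478, 1929 and 1385 at 7.5 h (-0.51, SE 0.125, adjusted p = 0.0421). Sema6b fell in VIP from 1469, 1988 and 1868 to 1010.2, 1392 and 1264 (-0.54, SE 0.13, adjusted p = 0.0282), as it did in Emx and Gad2. In total 34 members passed at 7.5 h in at least 1 line (background 35.9%), 10 in at least 2 (14.3%), 5 in at least 3 (6.49%) and 1 (Plxna2) in 4 (2.92%). The last 3 of these counts are near or below the background.

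Marker sums moved in some of these lines too. The sum of 6 general inhibitory markers was 117700 to 128900 in SST dark libraries and 137600 to 176400 at 7.5 h, and 99450 to 108900 against 124200 to 132100 in VIP. In SST it was 137300 to 142400 at 3 h, and the sum of 5 SST markers there was 127000 to 132600 in the dark, 147800 to 166500 at 3 h and 141300 to 169700 at 7.5 h. The inhibitory sum was 136600 to 147200 against 147300 to 159000 in Gad2. In PV the sum of 5 SST markers was 1749 to 1957 in the dark and 2590 to 3494 at 7.5 h, and that of 5 VIP markers 64.2 to 116 and 148 to 331. In standard housing the PV line had a VIP sum of 129 to 203 and a microglial sum of 333 to 451, against a microglial sum of 457 to 546 in the dark. None of these pairs of ranges overlapped. Their part in the changes was not tested. Libraries at 7.5 h were also shallower than dark ones, as given above, and the part of depth was not tested.

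**Figure D5:**
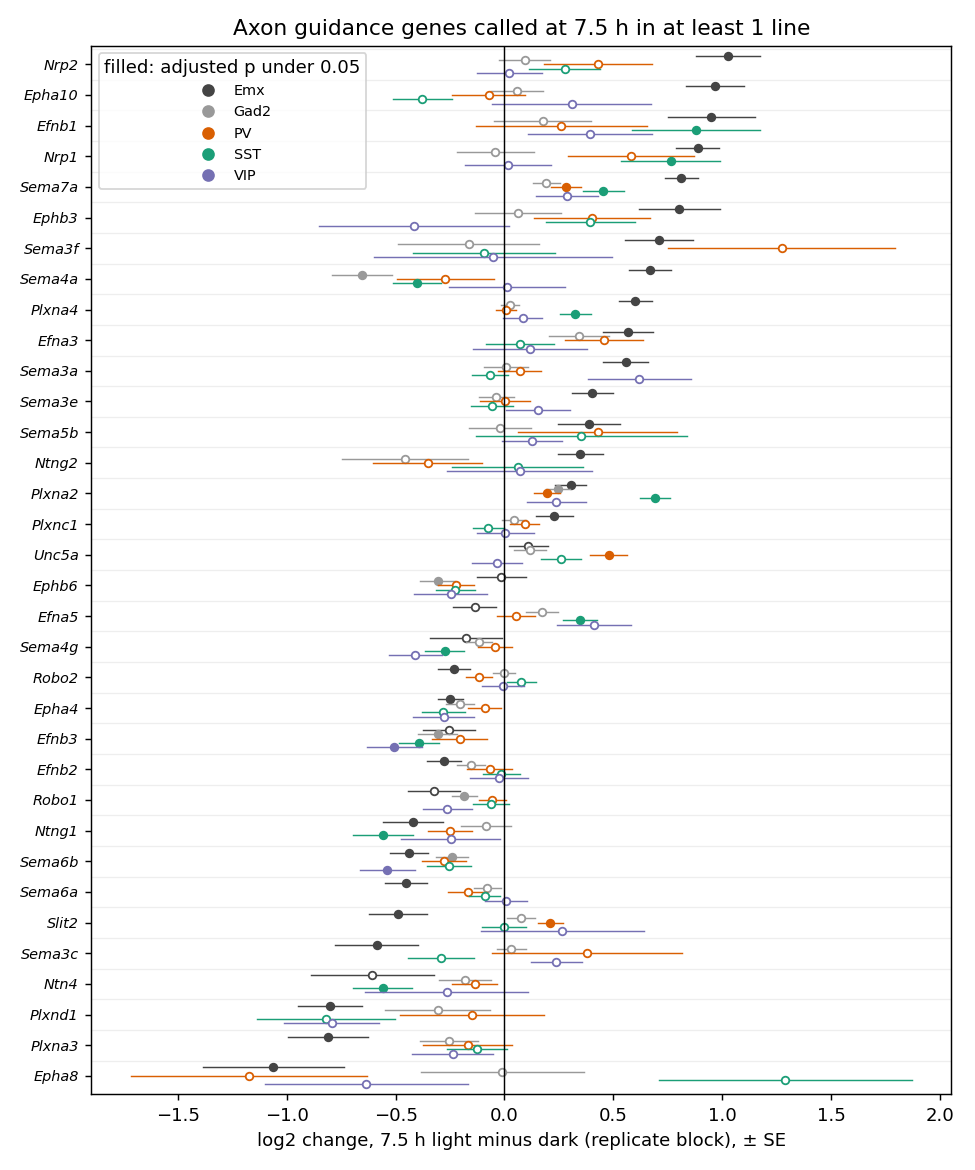
Log2 change at 7.5 h of light against dark, with the replicate number as a block, for the 34 axon guidance genes that passed in at least 1 Cre line, as the estimate ± SE and with filled symbols where the adjusted p was under 0.05. Nrp2, Epha10, Efnb1, Nrp1 and Sema7a lead the rises in Emx, and Plxna2 is filled in 4 lines with its highest value, 0.69, in SST.

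Whether the lines differed in their response was tested directly, as the interaction of line and light over the 3 light times. Without the block limma called 0 members (background 0.311%), with 3 at an unadjusted p under 0.05. With it, 8 were called (background 4.7%): Plxna4, Nrp1, Sema3a, Sema4a, Sema7a, Sema6a, Nrp2 and Plxna2. Sema4a moved in opposite directions at 7.5 h, by 0.67 (log2, SE 0.10) in Emx, -0.65 (SE 0.14) in Gad2 and -0.40 (SE 0.11) in SST. Plxna4 changed by 0.60 in Emx and 0.325 in SST but by 0.03 (SE 0.04) in Gad2 and 0.01 (SE 0.05) in PV. Nrp1 changed by 0.89 in Emx and 0.76 in SST, and by 0.58 (SE 0.29) in PV, -0.04 (SE 0.18) in Gad2 and 0.02 (SE 0.20) in VIP. Among the 3 inhibitory classes, Plxna2 rose more in SST than in the mean of PV and VIP at 7.5 h (difference 0.475, SE 0.12, background 0.685%), and the change of Sema3a was larger in VIP than in the mean of PV and SST (0.62, SE 0.16, background 1.38%). Sema3a in VIP was 315, 210.5 and 262 in the dark and 521, 294 and 413 at 7.5 h, and by itself that change did not pass (0.62, SE 0.24, adjusted p = 0.255 with limma and the block). No other member passed these tests of a class against the others.

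Among 55 other pathway genes, only Trio, a guanine nucleotide exchange factor, was called without the block, rising in Emx at 7.5 h (log2 0.57, SE 0.14, adjusted p = 0.029). With the block, 8 rose and 10 fell in Emx at 7.5 h, which is 32.7% of the 55 against a background of 25.9%, and 9 rose and 5 fell in SST, 25.5% against 17.0%. Rock2, a protein kinase, rose at 7.5 h in all 5 lines with the block, by 0.38 (PV) to 0.77 (VIP), and Mical2, an oxidase that acts downstream of plexins, by 0.40 to 1.099 in Emx, Gad2, PV and SST.

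Promoter sequences of 3 receptors that changed with light are shown, since motifs of activity-regulated factors could be looked for in them. They are the 250 bases before the start site, 5′ to 3′ on the plus strand, from RefSeq on GRCm38.p6: Nrp1 at chr8:128358823-128359072, Nrp2 at chr1:62703067-62703316 and Plxna2 at chr1:194619579-194619828. Capitals mark a match to an EGR motif.
Nrp1: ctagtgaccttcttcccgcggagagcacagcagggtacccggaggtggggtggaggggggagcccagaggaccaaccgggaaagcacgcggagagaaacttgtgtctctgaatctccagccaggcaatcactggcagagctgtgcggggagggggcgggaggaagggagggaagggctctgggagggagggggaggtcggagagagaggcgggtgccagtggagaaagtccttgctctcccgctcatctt
Nrp2: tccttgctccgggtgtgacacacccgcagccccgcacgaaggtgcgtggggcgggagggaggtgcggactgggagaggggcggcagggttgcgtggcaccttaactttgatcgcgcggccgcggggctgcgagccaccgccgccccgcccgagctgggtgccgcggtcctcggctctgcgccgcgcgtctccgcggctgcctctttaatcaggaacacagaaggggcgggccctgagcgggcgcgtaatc
Plxna2: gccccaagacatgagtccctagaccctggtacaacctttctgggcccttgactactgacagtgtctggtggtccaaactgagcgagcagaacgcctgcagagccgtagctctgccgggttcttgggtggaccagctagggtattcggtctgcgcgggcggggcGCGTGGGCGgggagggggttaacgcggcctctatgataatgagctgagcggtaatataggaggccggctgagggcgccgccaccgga
The windows searched ran from 250 bases before to 50 after the start, on both strands, for TGACGTCA (cyclic AMP response element), TGACTCA or TGAGTCA (AP-1) and GCGTGGGCG or GCGGGGGCG (EGR). Matched by symbol, 57 members had a window, and no window was used here for Plxna1, Plxna4, Sema3b, Sema3f, Sema6a, Ntn1, Efnb3, Unc5d and Slit1. An EGR motif was found for 8 of 57 members (14.0%), namely Sema4g, Sema5a, Sema6b, Plxna2, Plxnb2, Efna3, Epha8 and Slit2, against 3.93% of 27025 genes. An AP-1 motif was found for Sema4c and Sema6b (3.51%, against 5.95% of genes), and a cyclic AMP response element for 0 members, against 2.03%. Of the genes called in Emx without the block, Nrp1, Nrp2, Epha10, Sema7a and Plxnd1 held none of these letters in the window. The EGR motifs hold almost only G and C, and the promoters shown are 62.8 to 72.4% G and C. The shares were not matched for base composition, and the 27025 genes include some outside the 14261 used here. These matches are descriptions and were not tested.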

How the data were processed

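Ribosome-bound RNA was amplified by SPIA (a linear method) and sequenced as single-end 50-bp reads, per the labels' protocols. The build mm9, the aligners Bowtie2 (2.1.0.0), BWA and TopHat2 (2.0.13), and Cuffdiff (2.2.1) with Cuffnorm are named in the submitters' processing notes, with neither order nor settings. Values in the table the authors deposited are a normalized signal, which is read here as gene reads over a scaling factor of each library. Of values up to 20 reads, 93.3 to 96.4% came out whole within 0.1 read, which was too few for a count model. Counting by strand, and how reads shared by similar or overlapping genes were assigned, are not given in the sources used here.

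Of 14284 genes, 23 turned into dates by a spreadsheet were dropped. The columns of 2 samples were empty, so 73 of 75 were used. A gene entered a fit where 3 or more libraries had a signal of 1 or more. Genes at 0 in some libraries while their median was at least 50 reads were set aside (9 to 23 per line, 96 in the fit of all lines, 0 members). limma 3.58.1 (R 4.3.3, statmod 1.5.0; robust, trended moderation, two-sided) was run on log2(signal + 1), with Benjamini-Hochberg adjustment over all genes of a contrast. Folds are 2 to the power of the fitted difference, which understates changes of low genes. Same-numbered libraries deviated together from their group means (r = 0.156 to 0.801 over 56 pairs and 11930 genes), so blocked values are printed where they change a call. No label says what the number marks. Replicates are pools of separate mice by the design text.

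Genes are named by rule: all called with light, the 15 smallest adjusted p among those called with the block alone, the 6 largest differences each way per comparison of lines, the 6 smallest adjusted p of the interaction, and binding partners of these. A few others, chosen after their values were seen, illustrate a family. The members and lists were chosen with earlier results of these data known. Fits without the block were tried on simulated data in which libraries varied independently. That trial covers neither the block nor libraries that deviate together by number. Alternatives were other pseudocounts (0.1 and 10), low-value filters, trimmed-mean scaling, the block, left-out libraries, dark groups only and no minimum difference.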

Additional observations from a re-analysis of the deposited data

Results flagged for a closer look

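The responses of 8 genes to light differed between lines in the test of line by light over 1, 3 and 7.5 h with the replicate block (12 coefficients jointly, Benjamini-Hochberg adjusted). The adjusted p was 1.166e-05 for Plxna4, 0.0002265 for Nrp1, 0.0002992 for Sema3a, 0.00144 for Sema4a, 0.002339 for Sema7a, 0.01062 for Sema6a, 0.0235 for Nrp2 and 0.0365 for Plxna2. At 7.5 h the change of Plxna2 in SST exceeded the mean change of PV and VIP by 0.475 (log2, SE 0.117, adjusted p = 0.0304). The change of Sema3a in VIP exceeded the mean change of PV and SST by 0.618 (SE 0.159, adjusted p = 0.0296). None of these passed without the block. Sema6a fell by 0.454 in Emx with the block at 7.5 h (SE 0.096), and its change was -0.09 (SE 0.071) in SST.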

How the results depend on the processing

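With the replicate block, the count of called changes with light over 4 contrasts went from 7 to 39 in Emx, and from 0 to 6 (Gad2), 7 (PV), 12 (SST) and 2 (VIP), and the joint interaction from 0 to 8 genes. With SST number 2 left out together with the block, an alternative added after the data were seen, SST had 11. Among the other pathway genes, calls with light went from 1 to 76 over all lines and times, and genes lower in PV than in SST from 10 to 11. Over all genes the block also raised the share called in each light contrast, in Emx at 7.5 h from 3.8 to 25.9%. Of the differences between lines tested in members, the block changed only the Unc5a call given above. In those comparisons the block was shared by all lines, so it does not take up deviations particular to a line. Without the minimum difference, PV and SST differed in 48 members (23 with it), SST and VIP in 55 (26) and Emx and Gad2 in 57 (30). Most genes differ between lines at such a threshold. At an unadjusted p under 0.05 (limma) these comparisons gave 7649, 7956 and 9604 of all 14164 genes. The members gave 50, 56 and 59 of 66. Leaving out each library or replicate number in turn gave 2 to 7 calls with light in Emx, 0 in the other lines, 21 to 25 genes for PV against SST, 35 to 36 for PV against VIP, 25 to 27 for SST against VIP, 28 to 31 for Emx against Gad2, and 0 for the interaction. Pseudocounts, low-value filters, trimmed-mean scaling, the genes set aside and the use of dark groups only left every one of these counts within 1.5 times, and no result reversed. The planned count model on recovered reads was not run, because too few values were whole multiples. Depth limits low genes (Efna4, Ephb4, Robo3, Robo4, Efna1), and 2 or 3 libraries per group limit the rest.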
